A study of Mus musculus with 14 samples.

Results

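The genes described here encode the T cell antigen receptor with its co-receptors and the proteins that act directly behind it. The set holds 41 genes, listed by name as receptor, co-receptor and signaling genes, with no threshold on their values. The list was drawn up with earlier results of these data known, so it is not independent of them. On the array platform 40 of the 41 have a probe set annotated to that gene alone, all 40 passed the filter on dim probe sets, and they are 40 of the 12212 genes tested. The kinase gene Lck is the 1 member without such a probe set and was not analysed here.

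The receptor recognises peptide on MHC molecules through its variable chains, and the CD3 and zeta chains carry the signal into the cell. Src family kinases phosphorylate motifs in their tails, Zap70 docks there and phosphorylates the membrane adaptor Lat, and the complex that gathers on Lat opens branches to calcium and NFAT, to Ras, and to NF-kB. Phosphatases, the kinase Csk and the Cbl ubiquitin ligases restrain the same steps, and in regulatory T cells, the CD4 T cells that express Foxp3, signals through this receptor are needed for suppressive function.

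RNA of sorted mouse regulatory T cells was hybridised to 14 single-colour Affymetrix expression arrays. All cells derive from 129/SvJ mice that carry the Foxp3-ires-GFP knock-in, in which GFP marks cells with an active Foxp3 locus. The 6 naive samples came from resting spleens, and the submitters assign replicates 1 to 3 as controls of the graft-versus-host disease (GVHD) samples and replicates 4 to 6 as controls of the tumor samples. The 3 GVHD-activated samples came from spleens of wild-type BALB/c recipients taken on day 4 after 900 cGy of irradiation and intravenous transfer of 2000000 purified CD4+ and CD8+ T cells of knock-in mice with 2000000 bone marrow cells of wild-type 129/SvJ mice. Marrow and recipients lacked the knock-in, so that GFP marked cells of the transferred T cells. The 5 tumor-activated samples came from peritoneal ascites of knock-in mice on day 5 after intraperitoneal injection of 1000000 P815 cells, an allogeneic mastocytoma line that originated in DBA/2 mice. A sort purity above 95% is stated for naive replicates 4 to 6 and for both activated groups, and none for naive replicates 1 to 3, whose protocol describes a study with another tumor line. The sample titles call every sample a biological replicate. Ages and the number of animals behind a sample are not stated, and p-values therefore measure only how these samples vary.

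Sums over cell type markers and measures of RNA quality differed between the groups and stand beside every result on the tumor-activated arrays. The summed signal of 9 T cell markers, all of them members of the set, ranged from 97099 to 114161 in naive replicates 1 to 3. It ranged from 93843 to 117567 in the GVHD-activated arrays, from 50629 to 83213 in naive replicates 4 to 6, and from 4098 in tumor-activated replicate 3 to 44122 in replicate 2. The 5 regulatory T cell markers summed to between 84577 and 87115 in the GVHD-activated arrays and between 52839 and 58406 in naive replicates 1 to 3. They summed to between 43795 and 48686 in naive replicates 4 to 6 and between 7690 and 54542 in the tumor-activated arrays. The 10 mast cell and mastocytoma markers summed to between 71457 and 140764 in the tumor-activated arrays and to 7896 in naive replicate 6, against 285 to 570 on the other 8 arrays. The 10 macrophage and monocyte markers summed to between 19062 and 63512 in the tumor-activated arrays, to 4064 in naive replicate 6 and to between 672 and 1538 elsewhere. Over all arrays the CD8 T and NK cell list summed to between 420 and 3119, the neutrophil list to between 102 and 1861, and the erythroid and platelet list to 1464 to 9305 in the tumor-activated arrays and 70 to 295 elsewhere. The B cell list summed to 5075, 1953 and 5080 in naive replicates 4 to 6, to 590 to 1838 in the tumor-activated arrays and to 860 to 1424 elsewhere, and 6 of its 8 tested markers fell in the tumor comparison. Of the markers tested, 8 of 8 for mast cells and 9 of 10 for macrophages rose in the tumor-activated arrays. The ratio of the 3' to the 5' control probe sets of Gapdh, a measure of RNA integrity, was highest in tumor-activated replicate 2, at 19.9, and in naive replicates 4 to 6, at 7.45 to 19.1. It was 2.19 to 2.64 in the other 4 tumor-activated arrays and 3.28 to 5.11 in the remaining 6 arrays. The probe set of Foxp3 itself read 108 on its highest array. It failed the filter, and the defining gene of the sorted cells has no usable level here. The part of these differences in the results below was not tested, and in bulk RNA fewer T cells and less RNA per T cell cannot be told apart.

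**Figure D1:**
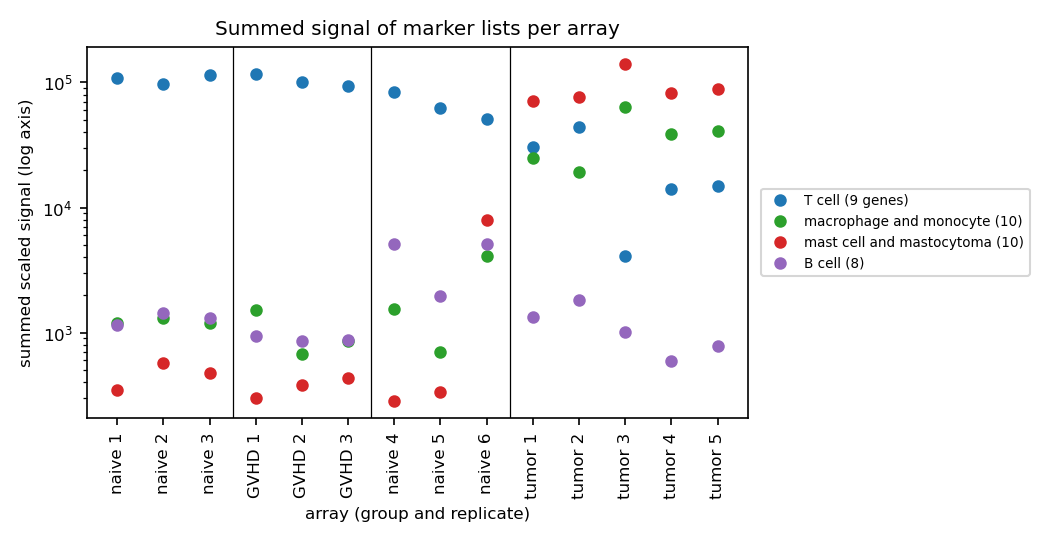
Summed scaled signal of 4 marker lists on each of the 14 arrays (log axis), with the number of genes summed in brackets; each point is 1 array. T cell markers are lowest in tumor-activated replicate 3, at 4098, and mast cell markers lie between 71457 and 140764 in the tumor-activated arrays.

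The promoter sequences of 4 receptor chain genes, 3 of which fell in the tumor-activated arrays, are shown with those of Lcp2, a signaling gene that was not called there, and Cblb, which fell in both activated groups. They come from RefSeq on build GRCm38.p6, span 250 bases before to 50 bases after a start site, and are written 5′ to 3′ along the gene's strand. The windows are Cd3g at chr9:44980382-44980681 on the minus strand, Cd3d at chr9:44981536-44981835 on the plus strand, Cd3e at chr9:45009562-45009861 on the minus strand, Cd247 at chr1:165788431-165788730 on the plus strand, Lcp2 at chr11:34046678-34046977 on the plus strand and Cblb at chr16:52031299-52031598 on the plus strand. Capitals mark matches on either strand to 4 motifs of 6 letters, GGAAGT (ETS), TGTGGT (RUNX), GGAAAA (NFAT) and CAGGTG (E-box), which do not overlap in these windows.
Cd3g: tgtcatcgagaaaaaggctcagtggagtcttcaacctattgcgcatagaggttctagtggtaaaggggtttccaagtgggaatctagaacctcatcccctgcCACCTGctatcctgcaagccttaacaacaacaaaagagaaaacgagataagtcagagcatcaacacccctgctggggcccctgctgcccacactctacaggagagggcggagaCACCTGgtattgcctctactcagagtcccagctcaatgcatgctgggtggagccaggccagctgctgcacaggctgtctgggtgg
Cd3d: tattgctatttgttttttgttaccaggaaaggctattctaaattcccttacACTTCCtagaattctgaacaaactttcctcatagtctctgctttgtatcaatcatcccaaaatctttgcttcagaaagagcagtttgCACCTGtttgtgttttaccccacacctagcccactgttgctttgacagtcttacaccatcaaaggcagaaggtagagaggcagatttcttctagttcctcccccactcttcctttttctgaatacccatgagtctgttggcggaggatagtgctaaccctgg
Cd3e: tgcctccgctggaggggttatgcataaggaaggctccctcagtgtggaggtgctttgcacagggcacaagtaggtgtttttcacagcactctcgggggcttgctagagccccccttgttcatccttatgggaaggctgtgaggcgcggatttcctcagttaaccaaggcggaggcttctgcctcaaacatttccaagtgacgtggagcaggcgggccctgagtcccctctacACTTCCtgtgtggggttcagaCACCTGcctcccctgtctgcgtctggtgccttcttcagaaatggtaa
Cd247: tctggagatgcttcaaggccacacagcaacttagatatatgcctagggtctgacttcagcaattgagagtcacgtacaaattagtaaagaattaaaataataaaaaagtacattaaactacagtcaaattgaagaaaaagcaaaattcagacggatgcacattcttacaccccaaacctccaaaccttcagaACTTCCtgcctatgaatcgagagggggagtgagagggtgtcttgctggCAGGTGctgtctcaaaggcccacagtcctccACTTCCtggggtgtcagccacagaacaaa
Lcp2: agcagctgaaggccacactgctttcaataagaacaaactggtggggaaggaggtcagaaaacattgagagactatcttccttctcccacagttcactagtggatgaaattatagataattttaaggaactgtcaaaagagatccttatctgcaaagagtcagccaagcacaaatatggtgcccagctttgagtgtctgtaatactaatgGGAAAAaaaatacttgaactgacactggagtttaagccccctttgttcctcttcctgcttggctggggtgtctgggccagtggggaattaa
Cblb: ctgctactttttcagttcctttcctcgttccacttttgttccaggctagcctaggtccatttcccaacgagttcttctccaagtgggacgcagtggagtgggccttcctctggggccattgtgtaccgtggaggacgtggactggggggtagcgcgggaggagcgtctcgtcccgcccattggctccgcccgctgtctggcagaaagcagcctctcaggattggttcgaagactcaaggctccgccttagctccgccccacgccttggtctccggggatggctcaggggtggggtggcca

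The E-box letters CAGGTG occur in all 4 receptor chain windows, with 2 matches in Cd3g. The ETS letters GGAAGT occur in those of Cd3d, Cd3e and Cd247, with 2 matches in Cd247, and not in that of Cd3g. The windows of Cd3g and Cd3d, whose genes lie on opposite strands, are 854 bases apart. Lcp2 has 1 match to the NFAT letters GGAAAA, and none of the 4 motifs was found in the window of Cblb. Promoter windows were found for 29 of the 41 members, 41 windows in all, because some genes have several start sites. CAGGTG occurred in 16 of these 41 windows (39%) and in 20.2% of all 32851 windows of the same length, and GGAAGT in 19 (46.3%) against 23.8%. TGTGGT occurred in 7 (17.1%) against 16.8%, and GGAAAA in 5 (12.2%) against 23.4%. Such matches describe the letters and do not show that a factor binds there.

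Across the 40 genes, the tumor-activated arrays were low in every role from receptor chains to NFAT. In GVHD few genes passed the test of the fit to all 14 arrays. In limma's fit to all 14 arrays, with Benjamini-Hochberg adjustment over all 12212 genes and calls at an adjusted p under 0.05, 26 of the 40 genes fell and 0 rose in the tumor-activated arrays, against 15.5% and 16.2% of all genes. At an unadjusted p under 0.05, 33 of the 40 genes differed in that comparison, and 41.8% of all genes did. The median log2 change of the 40 genes was -1.49, beside -0.06 over all genes tested. By role it was -1.88 for the receptor chains with Trat1, -1.82 for the surface proteins and -1.11 for the kinases and phosphatases. It was -1.05 for the adaptors, -1.63 for the down-regulators and -1.47 for the branches. In GVHD 2 of the 40 rose, Sla and Rasgrp2, and 2 fell, Cblb and Tespa1, against 9.83% and 12.5% of all genes. The median log2 change there was -0.18, beside -0.11 over all genes. This fit estimates each gene's spread over all 4 groups, and the calls of single genes below refer to it. With the tumor-activated arrays and their own controls fitted alone, far fewer than 26 genes fell, as given in the last section. The tumor calls and p-values of single genes therefore depend on the shared spread. With the 6 GVHD and control arrays fitted alone, 5 rose and 11 fell (16.4% and 21.2% of all genes). The SE of the GVHD change was 0.48 and 0.19 in the 2 fits for Cd3d, and 0.51 and 0.14 for Fyn. A gene without a GVHD call is therefore not shown to be unchanged. The difference between the tumor and GVHD changes, tested as a contrast of its own, was lower for 6 of the 40 genes (3.39% of all genes) and higher for 1 (7.39%). The 6 were Cd3g, Lat, Sla, Sla2, Rasgrp2 and Themis, and the 1 was Tespa1. The 2 groups of a comparison did not overlap, with the activated arrays lower, for 25 of the 40 genes in the tumor comparison (17.9% of all genes) and for 15 in GVHD (27.9%). They did not overlap with the activated arrays higher for 0 genes in the tumor comparison (16.5% of all genes) and 7 in GVHD (20.8%). The count of 26 changed with the naive array left out, to 12 without naive replicate 4 and 9 without naive replicate 5, whereas it was 28 without tumor-activated replicate 3. The 9 genes called whichever single array was left out were Cd3d, Cd3g, Fyn, Lat, Sh2d1a, Themis, Cblb, Prkcq and Nfatc3, and the 4 GVHD calls also held each time. The count of 6 for the difference was 12 without tumor-activated replicate 3 and 3 (Sla, Rasgrp2 and Themis) without any of naive replicates 2, 3 and 5, GVHD-activated replicate 3 and tumor-activated replicate 5. No share of all genes is given for these fits, so a change in calls over all genes cannot be told apart from one in the members. With tumor-activated replicate 3 and naive replicate 6 both left out, 30 fell and 0 rose (15.4% and 16.6% of all genes).

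**Figure D2:**
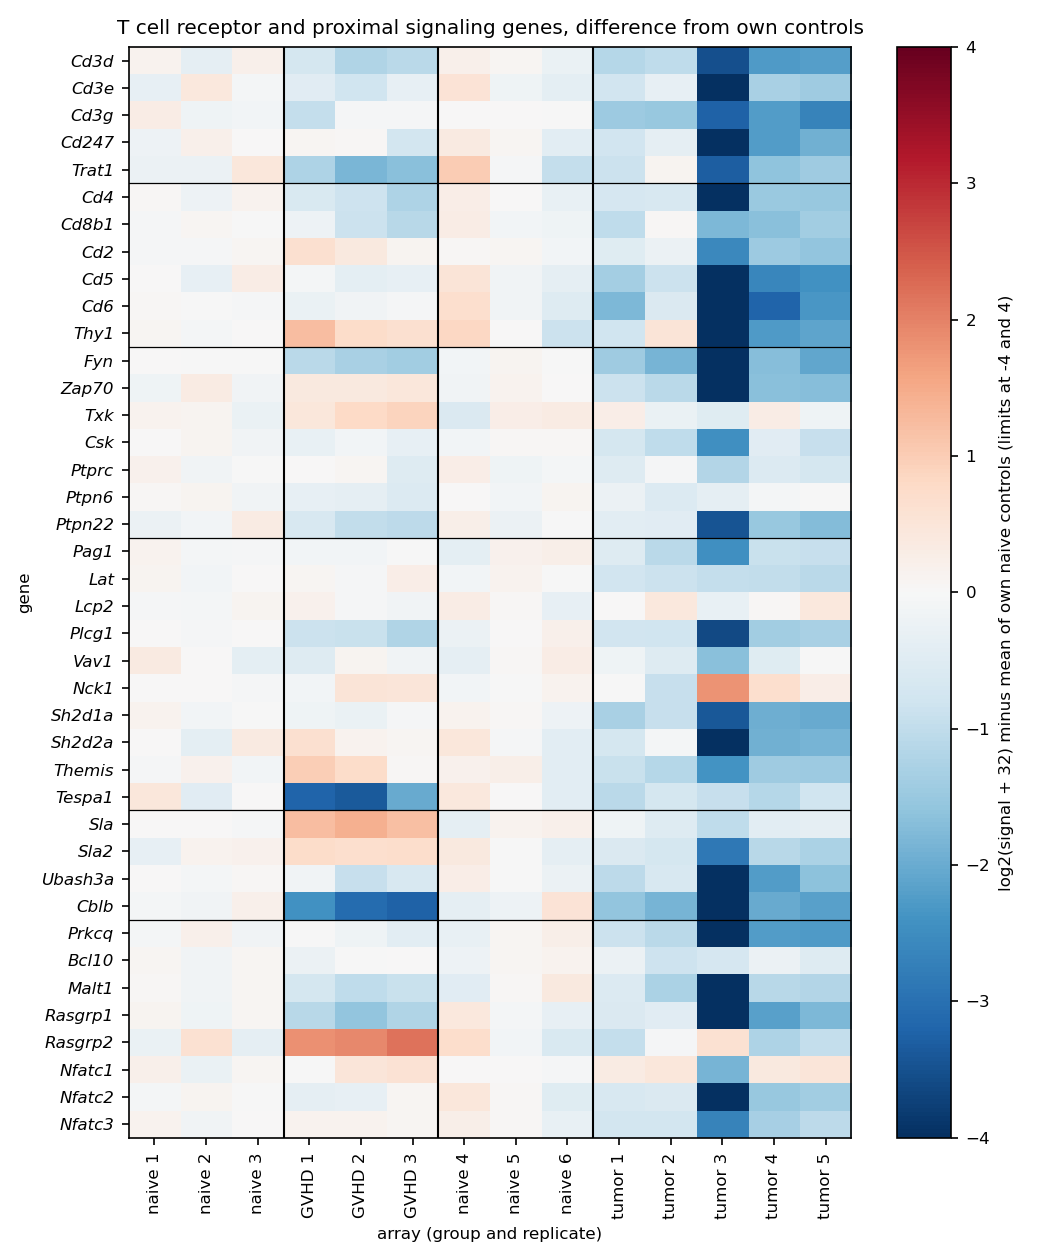
Difference of log2(signal + 32) from the mean of each array's own naive controls, for the 40 genes (rows, by role) on the 14 arrays (columns). Blue is lower and red higher, with colours limited at -4 and 4; tumor-activated replicate 3 is the darkest blue column, and Cblb and Tespa1 are blue and Rasgrp2 and Sla red in all 3 GVHD-activated arrays.

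**Figure D3:**
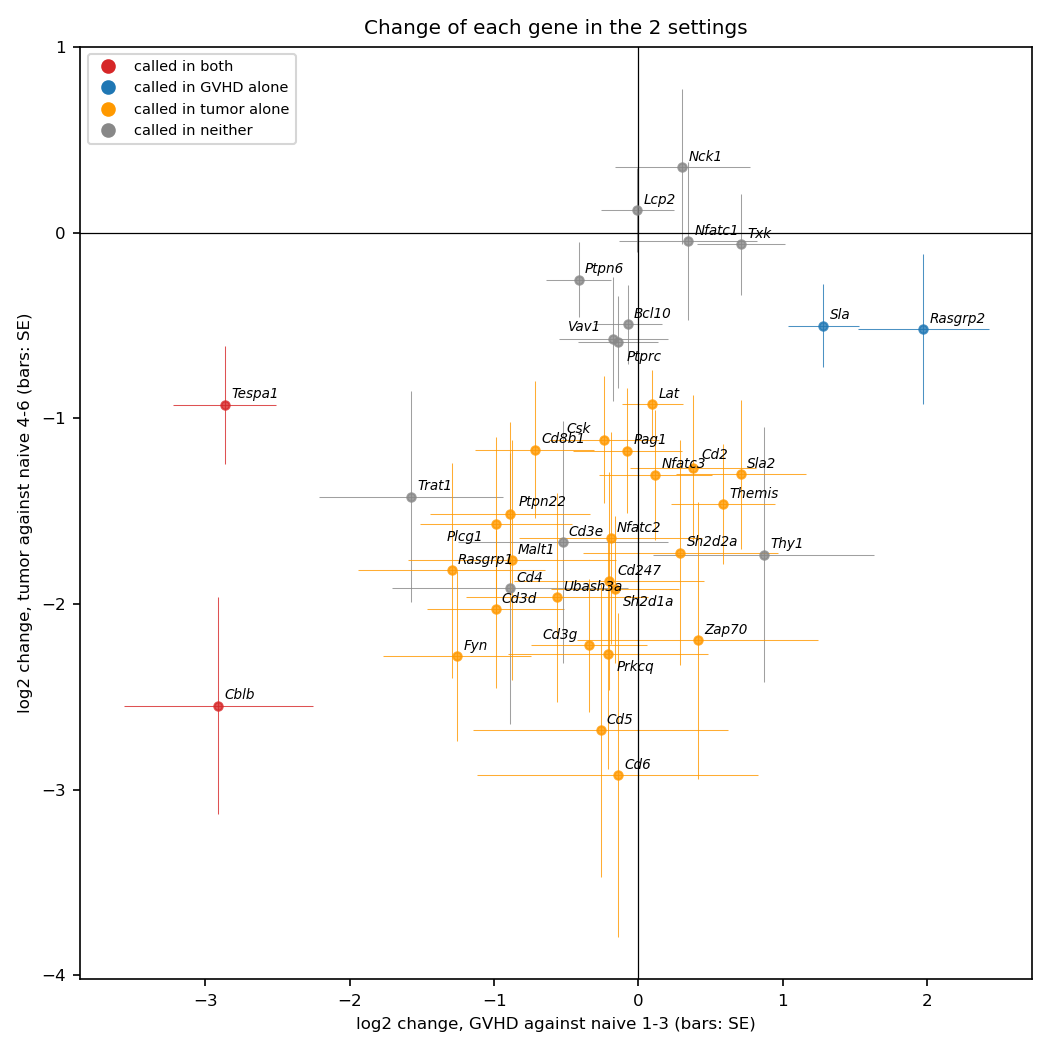
Log2 change of each of the 40 genes in GVHD (horizontal) against that in the tumor-activated arrays (vertical), with standard errors as bars and colours for the limma calls at an adjusted p under 0.05. Most genes lie below 0 vertically and close to 0 horizontally, with Cblb (log2 changes -2.91 and -2.55) and Tespa1 (-2.87 and -0.93) called in both.

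The receptor chain role holds 5 genes and includes the receptor-associated adaptor Trat1, which is not a chain. Among them Cd3d, Cd3g and Cd247 fell in the tumor-activated arrays, and none of the 5 was called in GVHD. All values below are scaled signals listed by replicate number, and folds are on the log2(signal + 32) scale, which understates changes of dim genes. Cd3d, which encodes the delta chain of CD3, read 16051, 11503 and 17065 in naive replicates 1 to 3 and 8987, 6369 and 6980 in the GVHD-activated arrays. Cd3d signals in naive replicates 4 to 6 were 7260, 6655 and 5212, and those in the tumor-activated arrays 2854, 3085, 523, 1297 and 1346. Every tumor-activated array lay below every array of its controls, and Cd3d fell 4.08-fold in the tumor-activated arrays (log2 change -2.03, SE 0.43, adjusted p = 0.0021). The GVHD-activated arrays also lay below naive replicates 1 to 3 without overlap, but the change was not called (log2 change -0.99, adjusted p = 0.152), and they overlapped naive replicates 4 to 6. For Cd3e, the epsilon chain, the signals were 2539, 4321 and 3018 in naive replicates 1 to 3 and 2359, 1831 and 2535 in the GVHD-activated arrays. Cd3e signals in naive replicates 4 to 6 were 2344, 1425 and 1211, and those in the tumor-activated arrays 922, 1261, 39.5, 632 and 573. Tumor-activated replicate 3 stood far below the other 4, replicate 2 overlapped the controls, and neither the tumor (log2 change -1.67, SE 0.65, adjusted p = 0.0616) nor the GVHD change (log2 change -0.53, adjusted p = 0.664) was called. Cd3g, the gamma chain, gave 9929, 7153 and 7618 in naive replicates 1 to 3 and 4229, 7959 and 7823 in the GVHD-activated arrays. Cd3g signals in naive replicates 4 to 6 were 6681, 6803 and 6561, and those in the tumor-activated arrays 2398, 2307, 682, 1404 and 1031. Its 3 controls were close together, all 5 tumor-activated arrays lay below them, and Cd3g fell 4.66-fold in the tumor-activated arrays (log2 change -2.22, SE 0.36, adjusted p = 0.000265). In GVHD replicate 1 was low and the other 2 lay among the controls (log2 change -0.34, adjusted p = 0.593), and the tumor change was 3.67-fold below the GVHD change (log2 change -1.88, SE 0.54, adjusted p = 0.0331). Cd247, which encodes the zeta chain with most of the signaling motifs, read 5851, 7903 and 6816 in naive replicates 1 to 3 and 7202, 6982 and 4078 in the GVHD-activated arrays. Cd247 signals in naive replicates 4 to 6 were 5017, 4104 and 2903, and those in the tumor-activated arrays 2285, 3063, 197, 802 and 1012. Tumor-activated replicates 1 and 2 were highest of their group, replicate 2 overlapped the controls, and Cd247 fell 3.67-fold in the tumor-activated arrays (log2 change -1.88, SE 0.59, adjusted p = 0.0233), whereas GVHD overlapped its controls (log2 change -0.21, adjusted p = 0.867). Trat1, a transmembrane adaptor that associates with the receptor, was called in neither, with log2 changes of -1.42 in the tumor-activated arrays (adjusted p = 0.0671) and -1.58 in GVHD (adjusted p = 0.0887). Its 3 GVHD-activated arrays, between 441 and 670, lay below all 6 naive arrays.

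Among the 6 co-receptor and other surface genes, Cd8b1, Cd2, Cd5 and Cd6 fell in the tumor-activated arrays and none was called in GVHD. Cd4, the co-receptor that binds MHC class II and defines these cells, read 5276, 4474 and 5669 in naive replicates 1 to 3 and 3306, 2890 and 2164 in the GVHD-activated arrays. Cd4 signals in naive replicates 4 to 6 were 2450, 2049 and 1659, and those in the tumor-activated arrays 1249, 1298, 21.6, 708 and 687. In both activated groups all arrays lay below their own controls, with replicate 3 of the tumor group at 21.6, but neither the tumor change (log2 change -1.91, SE 0.73, adjusted p = 0.0563) nor the GVHD change (log2 change -0.89, adjusted p = 0.484) was called. With tumor-activated replicate 3 and naive replicate 6 left out, Cd4 fell 2.33-fold (adjusted p = 0.00308). Cd8b1, a chain of the class I co-receptor that CD4 cells normally lack, was dim throughout at 342, 377 and 356 in naive replicates 1 to 3 and 308, 185 and 149 in the GVHD-activated arrays. Cd8b1 signals in naive replicates 4 to 6 were 206, 145 and 138, and those in the tumor-activated arrays 62.9, 165, 23.7, 28.9 and 41.4. Tumor-activated replicate 2 overlapped the controls, and Cd8b1 fell 2.25-fold in the tumor-activated arrays (log2 change -1.17, SE 0.37, adjusted p = 0.0242) and was not called in GVHD (log2 change -0.72, adjusted p = 0.239). With tumor-activated replicate 3 and naive replicate 6 left out, the tumor change of Cd8b1 was not called (log2 change -1.10, adjusted p = 0.0569). Cd2, an adhesion receptor, read 20608, 20602 and 22029 in naive replicates 1 to 3 and 33051, 27661 and 22543 in the GVHD-activated arrays. Cd2 signals in naive replicates 4 to 6 were 13064, 13371 and 11656, and those in the tumor-activated arrays 9097, 10812, 2100, 4567 and 4221. It fell 2.40-fold in the tumor-activated arrays (log2 change -1.27, SE 0.39, adjusted p = 0.0217), and the GVHD-activated arrays all lay above naive replicates 1 to 3 without a call (log2 change 0.38, adjusted p = 0.589). Cd5, a scavenger receptor family protein that restrains receptor signaling, gave 23647, 18652 and 28867 in naive replicates 1 to 3, 22082, 17876 and 18678 in the GVHD-activated arrays, 21518, 13727 and 11680 in naive replicates 4 to 6, and 5878, 8299, 179, 2475 and 2797 in the tumor-activated arrays. Its relative Cd6 gave 12733, 12172 and 12050 in naive replicates 1 to 3, 10348, 11117 and 12025 in the GVHD-activated arrays, 15537, 8780 and 6870 in naive replicates 4 to 6, and 2794, 6525, 63.8, 1034 and 1917 in the tumor-activated arrays. For both genes all tumor-activated arrays lay below the controls and replicate 3 was lowest: Cd5 fell 6.41-fold in the tumor-activated arrays (log2 change -2.68, SE 0.79, adjusted p = 0.0174), and Cd6 fell 7.56-fold in the tumor-activated arrays (log2 change -2.92, SE 0.87, adjusted p = 0.0185). In GVHD their log2 changes were -0.26 (adjusted p = 0.873) and -0.14 (adjusted p = 0.938). Thy1, a lipid-anchored surface protein of mouse T cells, ranged from 17017 to 26003 in GVHD, above all 6 naive arrays, where the highest was 11643, and from 292 to 7472 in the tumor-activated arrays. Neither change was called (GVHD log2 change 0.87, adjusted p = 0.465, tumor log2 change -1.73, adjusted p = 0.0647).

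Of the 7 kinases and phosphatases near the receptor, Fyn, Zap70, Csk and Ptpn22 fell in the tumor-activated arrays, while Txk, Ptprc and Ptpn6 were not called. Fyn, a Src family kinase that phosphorylates the CD3 and zeta tails, read 15632, 15079 and 15296 in naive replicates 1 to 3 and 7252, 6193 and 5829 in the GVHD-activated arrays. Fyn signals in naive replicates 4 to 6 were 6641, 7700 and 7077, and those in the tumor-activated arrays 2626, 1932, 331, 2153 and 1656. Both activated groups lay wholly below their controls, and Fyn fell 4.85-fold in the tumor-activated arrays (log2 change -2.28, SE 0.46, adjusted p = 0.00157). The GVHD change was not called (log2 change -1.26, adjusted p = 0.0929). The GVHD-activated arrays overlapped naive replicates 4 to 6, against which the log2 change was -0.15 (adjusted p = 0.844). Zap70, the kinase recruited to the phosphorylated chains, read 3605, 5134 and 3718 in naive replicates 1 to 3 and 5386, 5329 and 5650 in the GVHD-activated arrays. Zap70 signals in naive replicates 4 to 6 were 1974, 2386 and 2199, and those in the tumor-activated arrays 1196, 1011, 11.9, 663 and 640. All GVHD-activated arrays lay above all 6 naive arrays without a call (log2 change 0.41, adjusted p = 0.779), and the tumor-activated arrays lay below their controls, down to 11.9 in replicate 3. Zap70 fell 4.58-fold in the tumor-activated arrays (log2 change -2.20, SE 0.74, adjusted p = 0.0335), and the difference between the tumor and GVHD changes was not called (log2 -2.60, adjusted p = 0.166). Csk, which inactivates the Src family kinases, gave 5222, 5577 and 4697 in naive replicates 1 to 3 and 4208, 4803 and 4093 in the GVHD-activated arrays. Csk signals in naive replicates 4 to 6 were 5469, 6134 and 6127, and those in the tumor-activated arrays 3574, 2910, 1041, 4305 and 3105. The 5 tumor-activated arrays lay below their controls with replicate 3 apart from the other 4, and Csk fell 2.16-fold in the tumor-activated arrays (log2 change -1.11, SE 0.34, adjusted p = 0.0206). In GVHD Csk overlapped its controls (log2 change -0.24, adjusted p = 0.708). Ptpn22, a phosphatase that works with Csk, gave 5810, 6305 and 8493 in naive replicates 1 to 3 and 4303, 3408 and 3290 in the GVHD-activated arrays. Ptpn22 signals in naive replicates 4 to 6 were 5068, 3602 and 4225, and those in the tumor-activated arrays 3160, 3102, 357, 1477 and 1257. Both activated groups lay below their own controls, and Ptpn22 fell 2.86-fold in the tumor-activated arrays (log2 change -1.52, SE 0.50, adjusted p = 0.0289) without a call in GVHD (log2 change -0.89, adjusted p = 0.281). Txk, a Tec family kinase, was above all naive arrays in GVHD, at 1362 to 1867 (log2 change 0.71, adjusted p = 0.108), and read 497 to 869 in the tumor-activated arrays, among their controls at 457 to 886. Ptprc and Ptpn6 encode the phosphatases CD45 and Shp1, which are found in most blood cell types. Ptprc read 15695 to 34222 in the tumor-activated arrays and 30963 to 42059 in their controls, and Ptpn6 3076 to 4501 and 4183 to 4853. Their tumor log2 changes were -0.59 (SE 0.25, adjusted p = 0.0804) and -0.25 (SE 0.20, adjusted p = 0.366), the tumor and control arrays overlapped for both, and their GVHD log2 changes were -0.14 and -0.42.

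Among the 10 adaptor and Lat complex genes, 7 fell in the tumor-activated arrays, Pag1, Lat, Plcg1, Sh2d1a, Sh2d2a, Themis and Tespa1, and Tespa1 fell in GVHD as well. Lat, the membrane adaptor on which the complex is built, read 19147, 16266 and 17826 in naive replicates 1 to 3 and 18665, 17144 and 21210 in the GVHD-activated arrays. Lat signals in naive replicates 4 to 6 were 8290, 9985 and 8869, and those in the tumor-activated arrays 5330, 4957, 4641, 4566 and 4265. The 5 tumor-activated arrays were within a narrow band of 4265 to 5330 below their controls, with replicate 3 in the middle, and Lat fell 1.90-fold in the tumor-activated arrays (log2 change -0.92, SE 0.19, adjusted p = 0.00163). In GVHD Lat overlapped its controls (log2 change 0.10, adjusted p = 0.795), and the tumor change was 2.03-fold below the GVHD change (log2 change -1.02, SE 0.28, adjusted p = 0.0267). Plcg1, the phospholipase that produces the calcium and diacylglycerol signals, gave 3551, 3394 and 3501 in naive replicates 1 to 3 and 1885, 1883 and 1495 in the GVHD-activated arrays. Plcg1 signals in naive replicates 4 to 6 were 3732, 4452 and 4990, and those in the tumor-activated arrays 2579, 2502, 327, 1628 and 1765. It lay below its controls in both activated groups, and fell 2.97-fold in the tumor-activated arrays (log2 change -1.57, SE 0.47, adjusted p = 0.0189), with no call in GVHD (log2 change -0.98, adjusted p = 0.203). Pag1, which anchors Csk at the membrane, read 2791, 2398 and 2489 in naive replicates 1 to 3 and 2348, 2379 and 2534 in the GVHD-activated arrays. Pag1 signals in naive replicates 4 to 6 were 2518, 3687 and 3882, and those in the tumor-activated arrays 2284, 1542, 579, 1773 and 1732. The tumor-activated arrays lay below the controls, and Pag1 fell 2.25-fold in the tumor-activated arrays (log2 change -1.17, SE 0.34, adjusted p = 0.0153), whereas the GVHD-activated arrays overlapped theirs (log2 change -0.08, adjusted p = 0.914). Sh2d1a, the adaptor of the SLAM family receptors, gave 2210, 1854 and 1988 in naive replicates 1 to 3, 1778, 1665 and 1949 in the GVHD-activated arrays, 1802, 1704 and 1433 in naive replicates 4 to 6, and 647, 850, 126, 399 and 378 in the tumor-activated arrays. Sh2d2a, the T cell specific adaptor, gave 2974, 2245 and 3805 in naive replicates 1 to 3, 4631, 3237 and 3122 in the GVHD-activated arrays, 1745, 1214 and 940 in naive replicates 4 to 6, and 758, 1196, 47.1, 307 and 320 in the tumor-activated arrays. Replicate 3 was the lowest tumor-activated array for both and replicate 2 the highest, overlapping the controls for Sh2d2a: Sh2d1a fell 3.79-fold in the tumor-activated arrays (log2 change -1.92, SE 0.40, adjusted p = 0.00185), and Sh2d2a fell 3.30-fold in the tumor-activated arrays (log2 change -1.72, SE 0.60, adjusted p = 0.0391). In GVHD both overlapped their controls, with log2 changes of -0.16 and 0.29 (adjusted p = 0.84 and 0.809).

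Themis, which binds the adaptor Grb2 and is needed for thymocyte development, read 675, 774 and 631 in naive replicates 1 to 3 and 1387, 1177 and 715 in the GVHD-activated arrays. Themis signals in naive replicates 4 to 6 were 757, 794 and 486, and those in the tumor-activated arrays 340, 284, 101, 227 and 223. The tumor-activated arrays lay below the controls, and 2 of the 3 GVHD-activated arrays lay above theirs. Themis fell 2.75-fold in the tumor-activated arrays (log2 change -1.46, SE 0.32, adjusted p = 0.00304), was not called in GVHD (log2 change 0.59, adjusted p = 0.272), and differed between the settings, with a tumor change 4.13-fold below the GVHD change (log2 change -2.05, SE 0.48, adjusted p = 0.0115). Tespa1, a thymocyte protein involved in receptor-driven calcium release, read 1770, 935 and 1309 in naive replicates 1 to 3 and 111, 97.5 and 294 in the GVHD-activated arrays. Tespa1 signals in naive replicates 4 to 6 were 1245, 932 and 694, and those in the tumor-activated arrays 421, 565, 471, 407 and 528. All 3 GVHD-activated arrays lay below every other array, at a mean of 167 ± 110 (SD, n = 3) against 1338 ± 418 (SD, n = 3), and Tespa1 fell 7.29-fold in GVHD (log2 change -2.87, SE 0.35, adjusted p = 2.31e-05). The 5 tumor-activated arrays were close together below naive replicates 4 to 6, with replicate 3 in their middle, and Tespa1 fell 1.90-fold in the tumor-activated arrays (log2 change -0.93, SE 0.32, adjusted p = 0.0352). The tumor change was 3.84-fold above the GVHD change (log2 change 1.94, SE 0.48, adjusted p = 0.0144). Lcp2, Vav1 and Nck1 were called in neither comparison. Lcp2 encodes an adaptor that bridges the Lat complex, and it read 3488, 4601, 2823, 3579 and 4629 in the tumor-activated arrays, across the range of its controls at 4227, 3582 and 2714 (log2 change 0.12, SE 0.23, adjusted p = 0.726). Vav1, an exchange factor for Rac, and Nck1, an adaptor toward the cytoskeleton, had tumor log2 changes of -0.57 (adjusted p = 0.213) and 0.36 (adjusted p = 0.557). Vav1 read 635 to 2067 in the tumor-activated arrays and 1620 to 2591 in their controls. Nck1 read 3006 in tumor-activated replicate 3, the highest of all 14 arrays. The GVHD log2 changes of these 3 genes lay between -0.17 and 0.30.

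**Figure D4:**
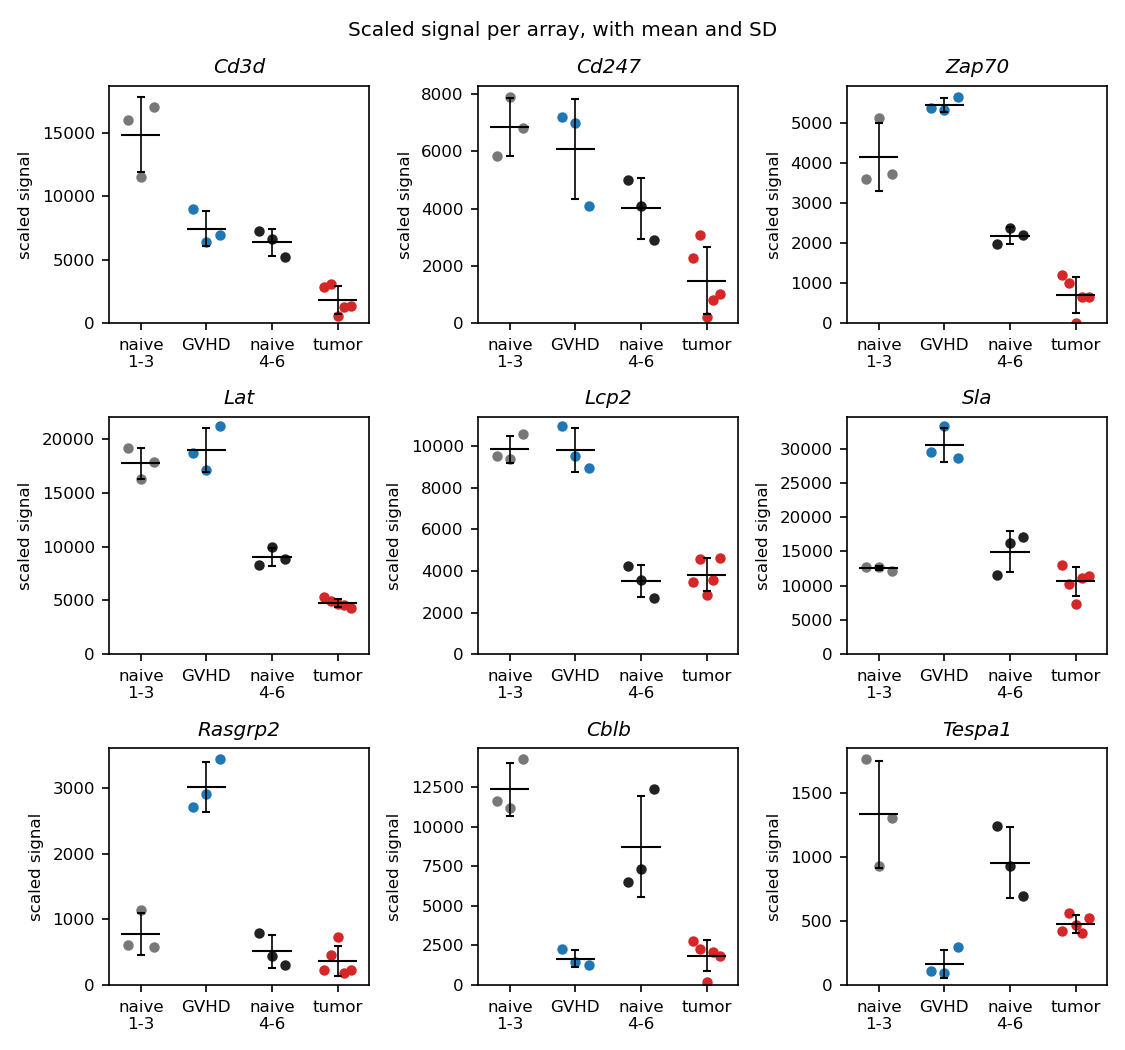
Scaled signal of 9 genes on each array (points), with the group mean (line) and SD (bars); the vertical axes start at 0. Cd3d, Cd247 and Zap70 are low in the 5 tumor-activated arrays, Lcp2 overlaps naive replicates 4 to 6 there, Sla and Rasgrp2 are highest in the 3 GVHD-activated arrays, and Cblb and Tespa1 are low in GVHD, at means of 1660 and 167.

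Of the 4 genes that act in down-regulation of the receptor, Sla rose and Cblb fell in GVHD, and Sla2, Ubash3a and Cblb fell in the tumor-activated arrays. Sla, an adaptor that brings the Cbl ligases to the zeta chain, read 12719, 12666 and 12168 in naive replicates 1 to 3 and 29498, 33300 and 28681 in the GVHD-activated arrays. Sla signals in naive replicates 4 to 6 were 11555, 16226 and 17073, and those in the tumor-activated arrays 12982, 10277, 7240, 11106 and 11431. The 3 GVHD-activated arrays exceeded all other arrays, at 30493 ± 2465 (SD, n = 3) against 12518 ± 304 (SD, n = 3), and Sla rose 2.43-fold (log2 change 1.28, SE 0.25, adjusted p = 0.00143). The tumor-activated arrays overlapped their controls (log2 change -0.50, adjusted p = 0.0972), and the tumor change was 3.43-fold below the GVHD change (log2 change -1.78, SE 0.33, adjusted p = 0.00243). Its relative Sla2 was dimmer, at 436, 618 and 628 in naive replicates 1 to 3 and 952, 897 and 927 in the GVHD-activated arrays. Sla2 signals in naive replicates 4 to 6 were 1131, 856 and 662, and those in the tumor-activated arrays 569, 520, 91.0, 386 and 339. The GVHD-activated arrays lay above naive replicates 1 to 3 without a call (log2 change 0.71, adjusted p = 0.288) but among naive replicates 4 to 6. Sla2 fell 2.46-fold in the tumor-activated arrays (log2 change -1.30, SE 0.40, adjusted p = 0.022), and its tumor change was 4.03-fold below the GVHD change (log2 change -2.01, SE 0.60, adjusted p = 0.0422). Cblb, the ubiquitin ligase that limits activation in the absence of co-stimulation, read 11637, 11176 and 14278 in naive replicates 1 to 3 and 2282, 1424 and 1274 in the GVHD-activated arrays. Cblb signals in naive replicates 4 to 6 were 6514, 7354 and 12398, and those in the tumor-activated arrays 2789, 2289, 211, 2071 and 1846. Both activated groups lay wholly below their controls and below all 6 naive arrays, with replicate 3 lowest in the tumor group. Cblb fell 7.52-fold in GVHD, from 12364 ± 1674 (SD, n = 3) to 1660 ± 544 (SD, n = 3) (log2 change -2.91, SE 0.65, adjusted p = 0.00425). It fell 5.84-fold in the tumor-activated arrays (log2 change -2.55, SE 0.59, adjusted p = 0.00391), and the difference between the settings was not called (log2 0.36, adjusted p = 0.853). Ubash3a, which encodes a phosphatase-like protein that binds Cbl ligases, gave 1366, 1293 and 1416 in naive replicates 1 to 3 and 1234, 705 and 860 in the GVHD-activated arrays. Ubash3a signals in naive replicates 4 to 6 were 839, 686 and 593, and those in the tumor-activated arrays 324, 433, 5.8, 124 and 204. The tumor-activated arrays lay below the controls, down to 5.8 in replicate 3, and Ubash3a fell 3.90-fold in the tumor-activated arrays (log2 change -1.96, SE 0.56, adjusted p = 0.0152), with no call in GVHD (log2 change -0.56, adjusted p = 0.579).

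Of the 8 genes of the branches to NF-kB, Ras and NFAT, 5 fell in the tumor-activated arrays, Prkcq, Malt1, Rasgrp1, Nfatc2 and Nfatc3, and Rasgrp2 rose in GVHD. Prkcq, the protein kinase C isoform of T cells, read 7981, 9872 and 7737 in naive replicates 1 to 3 and 8299, 7492 and 6334 in the GVHD-activated arrays. Prkcq signals in naive replicates 4 to 6 were 8966, 11516 and 12789, and those in the tumor-activated arrays 5999, 5190, 335, 2310 and 2246. The tumor-activated arrays lay below the controls, with replicates 1 and 2 highest and replicate 3 lowest, and Prkcq fell 4.83-fold in the tumor-activated arrays (log2 change -2.27, SE 0.62, adjusted p = 0.0113) without a call in GVHD (log2 change -0.21, adjusted p = 0.871). Malt1 encodes the protease of the complex with Bcl10, and it gave 2985, 2626 and 3024 in naive replicates 1 to 3 and 1743, 1393 and 1528 in the GVHD-activated arrays. Malt1 signals in naive replicates 4 to 6 were 3563, 5040 and 6421, and those in the tumor-activated arrays 3288, 2026, 155, 2239 and 2132. Both activated groups lay below their own controls, and Malt1 fell 3.39-fold in the tumor-activated arrays (log2 change -1.76, SE 0.65, adjusted p = 0.0471), while GVHD was not called (log2 change -0.88, adjusted p = 0.428). Bcl10, its partner, read 2069 to 3134 in the tumor-activated arrays and 3185 to 4022 in their controls, and was not called in either setting (tumor log2 change -0.49, SE 0.21, adjusted p = 0.0887, GVHD log2 change -0.07). Rasgrp1, the diacylglycerol-activated exchange factor for Ras, read 7095, 5854 and 7062 in naive replicates 1 to 3 and 3076, 2196 and 2886 in the GVHD-activated arrays. Rasgrp1 signals in naive replicates 4 to 6 were 4916, 3497 and 2907, and those in the tumor-activated arrays 2439, 2670, 187, 789 and 1049. Its arrays lay below their own controls in both activated groups, and Rasgrp1 fell 3.53-fold in the tumor-activated arrays (log2 change -1.82, SE 0.58, adjusted p = 0.0247) without a call in GVHD (log2 change -1.29, adjusted p = 0.169). Rasgrp2, an exchange factor for Rap proteins, read 618, 1141 and 578 in naive replicates 1 to 3 and 2711, 2920 and 3450 in the GVHD-activated arrays. Rasgrp2 signals in naive replicates 4 to 6 were 797, 438 and 299, and those in the tumor-activated arrays 227, 456, 738, 184 and 228. The 3 GVHD-activated arrays exceeded all others, at 3027 ± 381 (SD, n = 3) against 779 ± 314 (SD, n = 3), and Rasgrp2 rose 3.93-fold (log2 change 1.97, SE 0.45, adjusted p = 0.00482). The tumor-activated arrays overlapped their controls, with replicate 3 highest of the 5 (log2 change -0.52, adjusted p = 0.357), and the tumor change was 5.63-fold below the GVHD change (log2 change -2.49, SE 0.61, adjusted p = 0.0137).

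Of the 3 NFAT factors, which calcineurin sends to the nucleus, Nfatc2 and Nfatc3 fell in the tumor-activated arrays and Nfatc1 was not called. Nfatc2 read 1692, 1916 and 1778 in naive replicates 1 to 3, 1399, 1430 and 1913 in the GVHD-activated arrays, 2498, 1897 and 1298 in naive replicates 4 to 6, and 1153, 1224, 78.0, 620 and 678 in the tumor-activated arrays. Nfatc3 read 4990, 4096 and 4610 in naive replicates 1 to 3, 5006, 5036 and 4771 in the GVHD-activated arrays, 5537, 4888 and 3794 in naive replicates 4 to 6, and 2788, 2785, 709, 1857 and 2264 in the tumor-activated arrays. Both lay below their controls in all tumor-activated arrays: Nfatc2 fell 3.12-fold in the tumor-activated arrays (log2 change -1.64, SE 0.57, adjusted p = 0.0367), and Nfatc3 fell 2.47-fold in the tumor-activated arrays (log2 change -1.30, SE 0.35, adjusted p = 0.0105). Neither was called in GVHD, with log2 changes of -0.19 and 0.12 (adjusted p = 0.87 and 0.873). Nfatc1 read 4046 to 4453 in 4 tumor-activated arrays, above their controls at 3078 to 3261, and 848 in replicate 3, below them (log2 change -0.04, SE 0.43, adjusted p = 0.953). Whether the 3 NFAT genes differ from one another was not tested.

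Pearson correlations over all genes tested between arrays of 1 group, which are no test since genes are not independent replicates, were 0.835 to 0.983 in the tumor-activated group and 0.936 to 0.970 in the others, and the member genes were unevenly low within the tumor-activated group. As a percentage of the mean of naive replicates 4 to 6, the median over the 40 genes was 58.8% in tumor-activated replicate 1, 62.1% in replicate 2, 9.27% in replicate 3, 35.2% in replicate 4 and 34.0% in replicate 5. Replicate 3 was the lowest of the 5 arrays for 34 of the 40 genes, against 45.6% of all genes. The 6 exceptions were Lat, Bcl10, Nck1, Ptpn6, Rasgrp2 and Tespa1. In replicate 3, 20 of the 40 genes read below 10% of the naive mean, against 8.24% of 9847 genes with a naive mean of at least 100. For 10 of the 40 genes its gap to the next array passed Dixon's critical value, as it did for 1223 of all 12212 genes tested. The lowest were Zap70 at 0.544%, Cd6 at 0.614%, Ubash3a at 0.822%, Cd4 at 1.05% and Cd5 at 1.14%. The signals of Zap70, Cd6, Ubash3a and Cd4 there were 11.9, 63.8, 5.8 and 21.6. These lie below the signal of 100 used in the filter, so their order is uncertain. Both other probe sets of Zap70 read 515 and 46.9 on that array, against means of 499 and 2080 in naive replicates 4 to 6. On the same array Lat stood at 51.3%, Bcl10 at 62.5%, Txk at 68.0%, Ptpn6 at 77.0%, Lcp2 at 80.5% and Rasgrp2 at 144%. Nck1 stood at 353%, the highest of the 40. In replicates 4 and 5 Cd6 read 9.94% and 18.4%, Cd5 15.8% and 17.9%, and Cd3g 21.0% and 15.4%, whereas Nfatc1 read 132% and 139%. The T cell marker sum of the 5 arrays was 30500, 44122, 4098, 13972 and 14779 and their macrophage marker sum 24691, 19062, 63512, 38598 and 40850, in replicate order. The sum of 5 regulatory T cell markers was 50813, 54542, 7690, 34015 and 26173 on the same arrays and 43795 to 48686 in naive replicates 4 to 6.

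**Figure D5:**
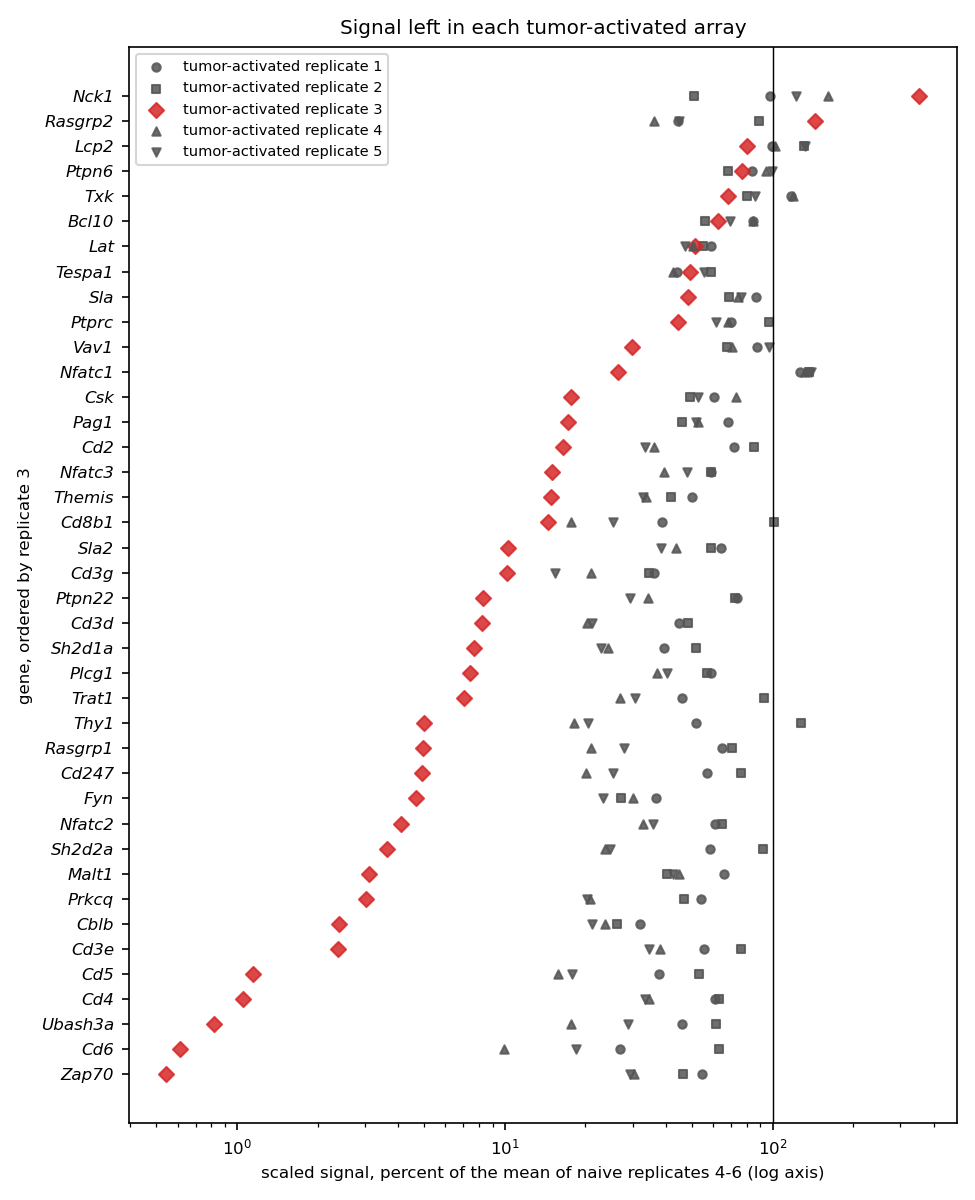
Scaled signal of the 40 genes in each of the 5 tumor-activated arrays as a percentage of the mean of naive replicates 4 to 6 (log axis, line at 100%), ordered by replicate 3 (red diamonds). Replicate 3 spans 0.544% for Zap70, at a signal of 11.9, to 353% for Nck1, and lies left of the other 4 arrays for 34 of the 40 genes.

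To see which genes moved unlike the receptor itself, each array was also referred to its own CD3 level, the mean log2 signal of Cd3d, Cd3e and Cd3g. That level was 12.80 to 12.86 in naive replicates 1 to 3, 12.14 to 12.35 in GVHD, 11.77 to 12.25 in naive replicates 4 to 6, and 10.88, 11.04, 8.25, 10.08 and 9.91 in the tumor-activated arrays. The other 37 genes were then tested in the same limma fit, without the 3 reference genes. In the tumor-activated arrays 9 of the 37 were higher relative to the CD3 chains and 0 lower, against 82.8% and 0.319% of all genes. The median of the 37 was 0.55 on the log2 scale, beside 1.91 over all genes. The 9 were Nck1 (2.33 on the log2 scale), Lcp2 (2.09), Nfatc1 (1.93), Txk (1.91), Ptpn6 (1.72), Bcl10 (1.48), Sla (1.47), Vav1 (1.40) and Ptprc (1.38). The 9 genes within 0.25 of the CD3 level on that scale, a limit chosen after seeing the values, were Ubash3a (0.01), Sh2d1a (0.05), Cd4 (0.06), Cd247 (0.09), Rasgrp1 (0.15), Malt1 (0.21), Zap70 (-0.22), Thy1 (0.24) and Sh2d2a (0.25), and none of them was called. Without tumor-activated replicate 3 and naive replicate 6, 14 of the 37 were higher and 0 lower, against 79.2% and 0.442% of all genes. In GVHD, relative to the same chains, Sla (1.90 on the log2 scale, adjusted p = 0.0388) and Sla2 (1.33, adjusted p = 0.0416) were higher and Cblb (-2.29, adjusted p = 0.00588) and Tespa1 (-2.25, adjusted p = 0.0296) lower, 2 and 2 of 37 genes against 5.46% and 1.55% of all genes. Rasgrp2 was no longer called on that scale (2.59, adjusted p = 0.0503). With Cd2, Cd5 and Cd6 as the reference in place of the CD3 chains, no gene was called higher in GVHD and 1, Cblb, was lower, against 0.868% and 0.475% of all genes. The tumor-activated arrays had 8 higher and 0 lower on that scale, against 71.2% and 0.0573% of all genes. This second reference and the omission of the 2 arrays from the CD3 scale were chosen after seeing the data.

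The GVHD result depended on how the spread between arrays was estimated and on the controls. Fitted to the 6 GVHD and control arrays alone, 5 of the 40 genes rose and 11 fell, against 16.4% and 21.2% of all genes. The 5 were Rasgrp2, Sla, Thy1, Txk and Sla2. The 11 were Cblb, Tespa1, Trat1, Rasgrp1, Fyn, Cd3d, Plcg1, Cd4, Ptpn22, Malt1 and Ptpn6. Against naive replicates 4 to 6, which the submitters did not assign to GVHD, the fit to all 14 arrays called 5 genes higher in GVHD and 2 lower, against 15.4% and 17.8% of all genes. The 5 were Rasgrp2 (log2 2.59), Lcp2 (1.49), Txk (1.19), Lat (1.07) and Sla (1.04), and the 2 were Tespa1 (-2.40) and Cblb (-2.36). Cd3d and Cd4, which were lower in GVHD by the fit to its 6 arrays (log2 -0.99 and -0.89), had log2 changes of 0.22 and 0.43 against naive replicates 4 to 6. Sla2 was likewise 0.71 against its own controls and 0.10 against the others. The deposited values of the GVHD-activated arrays had a trimmed mean of 1500 and those of all other arrays 500, and what went with this difference in setting cannot be told apart from the group in this comparison.

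The 2 sets of naive arrays, both labelled as resting spleen, differed for Lcp2 and Lat, which were lower in naive replicates 4 to 6 (Lcp2 log2 change -1.50, SE 0.25, adjusted p = 0.00269, and Lat log2 change -0.97, SE 0.21, adjusted p = 0.0119), 2 of the 40 genes beside 3.43% of all genes, and Lat was no longer called without naive replicate 1. No member was higher there in limma's fit, where 4.43% of all genes were. An unadjusted p under 0.05 in either direction was found for 5 of the 40 members (12.5%), beside 25.1% of all genes. The median log2 change was -0.47 over the 40 genes, 27 of them lower and 13 higher, beside -0.07 over all genes. All 5 genes of the receptor chain role and all 6 surface genes were lower, with medians of -0.79 and -0.87. Of the 8 branch genes 6 were higher. The B cell marker sum of naive replicates 4 to 6, 1953 to 5080, lay above the 1150 to 1424 of naive replicates 1 to 3, 3 of 8 B cell markers were higher there, and the part of this in the difference was not tested. The groups did not overlap for 18 genes with replicates 4 to 6 lower (21.4% of all genes) and for 4 with them higher (18.7%). Lcp2 read 9550, 9410 and 10604 in naive replicates 1 to 3 and 11004, 9519 and 8941 in GVHD, and the tumor-activated arrays and their controls all lay below those 6 arrays. With naive replicates 1 to 3 as controls the tumor-activated arrays had 30 of the 40 genes lower and 0 higher, against 25.2% and 21.9% of all genes, and Lcp2 was then among the lower ones (log2 -1.38, adjusted p = 0.000159).

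Different probe sets of a gene did not always give the same result, and 25 of the 40 genes have more than 1 that passed the filter. Every value above is that of the gene's brightest probe set on average over the arrays, and those below come from the same limma model fitted to all probe sets. For Cblb that probe set gave a log2 change of -2.91 in GVHD, and the other 2 gave -1.05 (adjusted p = 0.0963) and -0.13 (adjusted p = 0.853), whereas the same 2 gave -1.53 and -1.24 in the tumor-activated arrays (adjusted p = 0.00741 and 0.0142). For Tespa1 the other 2 gave -3.57 and -1.71 in GVHD, both called. For Rasgrp2, 1 of the 3 other probe sets rose in GVHD (1.60, adjusted p = 0.0183) and the remaining 2 gave 0.32 and -0.43 without a call. The probe set used for Rasgrp2 is of the class whose probes may also match other sequences. For Sla, 1 of the 3 others rose (1.56, adjusted p = 0.000996) and 2 gave 0.50 and 0.20. Where the probe set used was not called, another rose in GVHD for Sla2 (1.74, adjusted p = 0.00618) and Themis (1.19, adjusted p = 0.0363), although a further one of Themis gave -0.92. Likewise 1 each of Fyn (-1.83), Cd247 (-1.85) and Rasgrp1 (-1.52) fell in GVHD. In the tumor-activated arrays 7 other probe sets of 6 genes fell where the one used was not called. They belong to Cd4 (-1.85), Ptprc (-2.66), Nck1 (-1.28), Sla (-1.98), Rasgrp2 (-1.27 and -1.94) and Nfatc1 (-1.67). One of Bcl10, below 100 in all 3 controls, rose (1.12, adjusted p = 0.0185). Conversely 15 other probe sets of 10 genes that fell were not called, those of Cd247, Zap70, Pag1, Plcg1, Themis, Sla2, Malt1, Rasgrp1, Nfatc2 and Nfatc3. Among them were both others of Zap70 (-0.04 and -1.49), both others of Malt1 (-1.46 and -0.85) and the other of Sla2 (-0.29).

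A further 75 genes of the same pathway were listed beside the set, and 60 of them were tested. In the tumor-activated arrays 22 of the 60 fell and 4 rose, with a median log2 change of -0.63, and in GVHD 9 fell and 4 rose, with a median of -0.41. The background shares of the 2 comparisons are those given above. Among the 22 were the adaptors Skap1 (-2.25), Sit1 (-2.47) and Lax1 (-2.36), the diacylglycerol kinase Dgka (-2.34) and the co-stimulatory receptors Cd28 (-1.62) and Cd27 (-2.45), with log2 changes in brackets. The 4 that rose were Gab2 (4.08), an adaptor of growth factor and Fc receptors, Nras (0.89), Grb2 (0.76) and Tec (0.62). In GVHD the adaptors Grb2 (1.78) and Nck2 (1.39), the kinase Akt1 (1.63) and the phosphatase Ptprj (1.58) rose. The NF-kB pathway genes Ikbkb (-1.24), Ikbkg (adjusted p = 0.0246), Rel (-1.17) and Tnfaip3 (-2.05) fell against naive replicates 1 to 3, as did Vav3 (-1.81), Rhoh (-1.64), Lax1 (-1.05) and the activation markers Cd69 (-1.76) and Cd44 (-1.40). Of these 13 genes, 5 were also called in the same direction against naive replicates 4 to 6 (Nck2, Grb2, Akt1, Vav3 and Cd44), 5 were not called (Lax1, Ikbkb, Ikbkg, Rhoh and Cd69), and 3 had the other sign. The 3 were Ptprj (-0.24), Rel (0.13) and Tnfaip3 (0.47), none of them called there. Naive replicates 4 to 6 differed from replicates 1 to 3 in all 3 of these genes, by log2 1.82 for Ptprj (adjusted p = 0.029), -1.30 for Rel and -2.52 for Tnfaip3 (adjusted p = 0.0196 for both), and Ptprj read 6.2 to 120 in naive replicates 1 to 3.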

How the data were processed

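The deposited files hold 1 signal intensity per probe set and array, computed by the authors with MAS5 per the submitters' processing notes. The MAS5 version and software are not given in the sources used here. RNA was extracted with Trizol, per the labels' protocols. The deposited values of the GVHD-activated arrays were scaled to a 2% trimmed mean of 1500 and the others to 500, so every array was rescaled to 500. Of 45101 probe sets, 34958 are annotated to 1 gene symbol, 932 to several and 9160 to none, and the other 51 are control probe sets. Probe sets with a signal of at least 100 in at least 3 arrays were kept, each gene was represented by the one with the highest mean log2 signal, and 12212 genes were tested on log2(signal + 32). limma 3.58.1 in R 4.3.3 fitted 1 mean for each of the 4 groups to all 14 arrays, with eBayes and an intensity trend, and p-values were Benjamini-Hochberg adjusted over all genes with calls at 0.05. The fit was also run on data simulated with 1 spread per gene for all 4 groups, which cannot show how unequal spreads affect it. The members, the roles, the further pathway genes and the marker lists (T cell, regulatory T cell, CD8 T and NK cell, B cell, macrophage, mast cell, neutrophil, erythroid and platelet) were chosen with earlier results of these data known. Values on every array are given for the members called in a comparison and for Cd3d, Cd3e, Cd3g, Cd247, Cd4, Zap70 and Lat, other members by ranges, and pathway genes only where called. Lcp2 is given array by array too, chosen after its values were seen. Gene entries of 40 members were matched to RefSeq by Entrez number. The alternatives were other offsets, filters, probe set rules, scalings, controls, weights and blocks, each group alone, and leaving out arrays. The number of arrays limits the precision. Replicate numbers were checked for pairing: the correlations of same-numbered deviations were 0.0588, 0.103 and -0.0578 between GVHD-activated and naive arrays and -0.504 and 0.0622 between tumor-activated and naive arrays, so no pairing was assumed.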

Additional observations from a re-analysis of the deposited data

Results flagged for a closer look

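In 10 of the 40 genes, tumor-activated replicate 3 lay so far below the other 4 arrays of its group that its gap to the nearest exceeded the 95% critical value of Dixon's test. Chance exceeds it in about 1 in 20 groups, a rate that counts any array of a group. This array alone did so from below in 1223 of all 12212 genes tested, a count on another basis than that rate. Its scaled signal was 39.5 for Cd3e, 21.6 for Cd4, 331 for Fyn, 11.9 for Zap70, 327 for Plcg1, 155 for Malt1, 1041 for Csk, 211 for Cblb, 848 for Nfatc1 and 78.0 for Nfatc2. The same array had the lowest T cell marker sum, 4098, and the highest mast cell and macrophage marker sums, 140764 and 63512, and the part of these in the 10 values was not tested.

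For 7 genes the tumor and GVHD changes differed by limma's test of the difference itself. On the log2 scale the tumor change minus the GVHD change was -1.88 for Cd3g, -1.02 for Lat, -1.78 for Sla, -2.01 for Sla2, -2.49 for Rasgrp2 and -2.05 for Themis, and 1.94 for Tespa1. Each change was taken against its own 3 naive arrays, and those 2 sets of naive arrays also differed for Lat, by -0.97.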

How the results depend on the processing

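The counts of members in this section come with a share of all genes only where one is given above. At the other settings no share is given, so those counts do not show whether the members differed from genes in general. In GVHD the 2 members that rose became 4 with array weights, 5 with its 6 arrays alone, 4 without tumor-activated replicate 3 and naive replicate 6, 5 with naive replicates 4 to 6 as controls and 22 with signals as deposited. The 2 that fell became 10, 11, 10, 2 and 1 in the same order. In the tumor-activated arrays the 26 that fell became 8 with their arrays and controls alone and 0 relative to the CD3 chains, and 9 to 31 when 1 array was left out; the 0 that rose became 1 with array weights and 9 relative to CD3. The difference (1 higher, 6 lower) became 2 and 19 with weights, 2 and 13 without both arrays, and 3 to 12 lower when 1 array was left out. Naive replicates 4 to 6 against 1 to 3 (0 higher, 2 lower) gave 4 and 18 with weights, 1 and 13 alone, 6 lower without both arrays, 1 lower with quantile normalization and 1 to 2 lower when 1 array was left out. Relative to CD3, the 2 higher in GVHD became 9 without both arrays and 0 with Cd2, Cd5 and Cd6 as reference, the 2 lower became 1 with that reference, and the 9 higher in the tumor-activated arrays became 14 without both arrays. Values with the other sign, among genes called under either setting, were, on the log2 scale, 0.36 for Nfatc1 in the tumor-activated arrays with weights, -1.38 for Lcp2 there with naive replicates 1 to 3 as controls, and 1.49 for Lcp2 in GVHD with naive replicates 4 to 6. Relative to CD3 the tumor changes were 0.0947 for Cd247, 0.71 for Cd2, 0.80 for Cd8b1, 1.05 for Lat, 1.91 for Txk, 0.40 for Plcg1, 1.48 for Bcl10, 0.21 for Malt1, 1.40 for Vav1, 0.051 for Sh2d1a, 0.25 for Sh2d2a, 1.47 for Sla, 0.67 for Sla2, 0.00699 for Ubash3a, 0.455 for Ptpn22, 1.38 for Ptprc, 1.72 for Ptpn6, 0.86 for Csk, 0.80 for Pag1, 0.15 for Rasgrp1, 1.93 for Nfatc1, 0.33 for Nfatc2, 0.67 for Nfatc3, 1.05 for Tespa1 and 0.51 for Themis. Since CD3 itself was low, this reference raised every value by construction, and the sign turned only for genes that fell less than CD3. The values stayed negative for Cd5 (-0.71), Cd6 (-0.95), Fyn (-0.31), Zap70 (-0.22), Prkcq (-0.30) and Cblb (-0.58). The uncalled changes of Cd4, Rasgrp2, Thy1 and Trat1 also turned, to 0.06, 1.45, 0.24 and 0.55. As deposited, with the GVHD-activated arrays scaled to 1500 and their controls to 500, the GVHD changes were 1.24 for Cd3g, 1.57 for Lcp2, 1.50 for Bcl10, 1.39 for Vav1, 1.41 for Sh2d1a, 1.44 for Ptprc, 1.16 for Ptpn6, 1.34 for Csk and 1.49 for Pag1. The cause of the other changes was not tested. With the replicate number as a random block the calls were 2 higher and 2 lower in GVHD, 26 lower in the tumor-activated arrays, 1 higher and 5 lower for the difference and 2 lower between the naive sets. The array number and, for Foxp3 and other dim genes, the signal over background limit what can be measured.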
